A study of Mus musculus with 6 samples.

Results

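MHC class II expression was followed through 7 genes of the mouse, listed in the deposited table as CD74, H2-AA, H2-AB1, H2-EB1, H2-DMA, H2-DMB1 and CIITA and written below as Cd74, H2-Aa, H2-Ab1, H2-Eb1, H2-DMa, H2-DMb1 and Ciita. They were picked by symbol from the 24908 genes of the table and all 7 were found. Bulk RNA-seq covered the anterior (AP), dorsolateral (DLP) and ventral (VP) prostate of 1 wild-type mouse (WT) and of 1 littermate heterozygous for a human c-MYC transgene (MYC), with 1 library for each of the 3 lobes and thus 6 libraries. Both were male FVB mice, 12 weeks old and kept on a purified diet from weaning. The transgene is driven by the ARR2Pb promoter, which is active in prostate epithelium, so that leukocytes are not its intended target. Each lobe was digested to a cell suspension, and poly(A) RNA of these mixed cells was sequenced. Since all libraries of a genotype come from the same mouse, genotype and individual animal cannot be told apart, and no p-value is given.

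MHC class II molecules present peptides from endosomes to CD4 T cells. They are pairs of an alpha and a beta chain that assemble on the invariant chain, encoded by Cd74, which fills the groove until the H2-DM proteins exchange its remnant for a peptide. Ciita is the transactivator that switches on this whole set of genes, either constitutively, in dendritic cells, B cells and many macrophages, or after interferon gamma, also in epithelial cells. In bulk tissue a higher level can come from more antigen-presenting cells or from more transcript per cell, and these cannot be told apart here.

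The genes of the alpha and beta chains and of H2-DM lie together on chromosome 17. RefSeq (GRCm38.p6, the assembly also known as mm10, to which the reads were mapped) places H2-DMa at 34119693 to 34139101, H2-DMb1 at 34153191 to 34160229, H2-Ab1 at 34263227 to 34269418, H2-Aa at 34282744 to 34287823 and H2-Eb1 at 34305867 to 34316674. Class II promoters carry an X box, bound by the RFX complex, and downstream of it a Y box, bound by NF-Y, and Ciita acts through the proteins bound there. The RefSeq promoter table holds 4 of the members, and the 250 bases before each start were searched on both strands for TNGNAAC as letters of the X box and TGATTGG as letters of the Y box, letters that were chosen after these promoters had been read. The 120 bases before the start are shown for the members that carry both, and for H2-Ob, a chain of the H2-DM inhibitor H2-O. These are chr17:34287824-34287943 on the minus strand for H2-Aa and, on the plus strand, chr17:34305747-34305866 for H2-Eb1, chr17:34153071-34153190 for H2-DMb1 and chr17:34238785-34238904 for H2-Ob. Each reads from 5′ to 3′, with the X letters first and the Y letters last in capitals. The stretch in capitals between them in H2-Aa is TGACGTCA, the cyclic AMP response element.
H2-Aa: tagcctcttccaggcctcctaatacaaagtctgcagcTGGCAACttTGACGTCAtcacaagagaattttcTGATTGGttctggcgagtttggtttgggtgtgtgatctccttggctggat
H2-Eb1: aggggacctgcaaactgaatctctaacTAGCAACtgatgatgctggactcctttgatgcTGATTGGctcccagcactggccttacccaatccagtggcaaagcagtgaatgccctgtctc
H2-DMb1: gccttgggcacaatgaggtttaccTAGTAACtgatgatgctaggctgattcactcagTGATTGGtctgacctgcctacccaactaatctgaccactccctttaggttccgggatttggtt
H2-Ob: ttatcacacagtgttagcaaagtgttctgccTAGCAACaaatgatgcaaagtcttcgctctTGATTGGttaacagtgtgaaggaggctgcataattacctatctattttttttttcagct

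H2-Aa, H2-Eb1, H2-DMb1 and H2-Ob hold the X letters followed by the Y letters on the same strand, with 26, 25, 26 and 23 bases between them. Of the 32851 promoters in the table, 68 (0.207%) hold the X letters and then the Y letters on 1 strand within 40 bases. Alone, the X letters are in 30.7% of the promoters, the Y letters in 7.23% and TGACGTCA in 1.55%. H2-DMb2, H2-Oa and H2-Eb2 have the Y letters without the X letters upstream of them, and neither of the 2 H2-DMa promoters has either set of letters in this window. A match of letters is a description of the sequence and not a measured site.

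**Figure D1:**
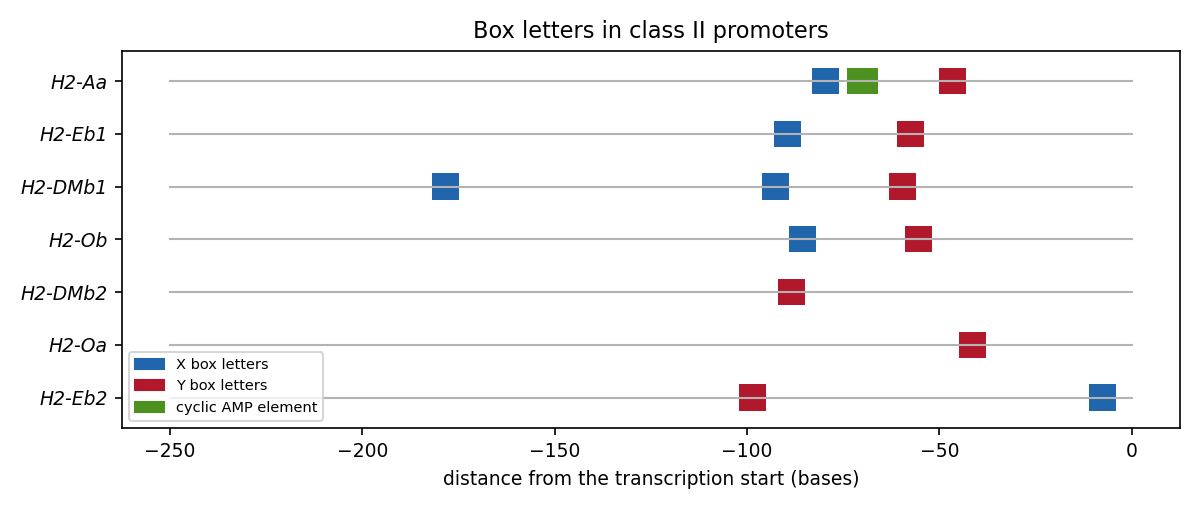
Position of the X box letters, the Y box letters and the cyclic AMP response element in the 250 bases before the start of 7 class II genes, with the distance from the start in bases on the x axis. In H2-Aa, H2-Eb1, H2-DMb1 and H2-Ob the X letters lie 23 to 26 bases upstream of the Y letters.

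Levels are given in FPKM (reads corrected for transcript length and for library depth), which allow a comparison between genes of different length. The steps between low values gave a depth of 25.5 M reads in WT AP and of 34.8 to 50.2 M in the other libraries. Ratios below carry 95% exact binomial (Clopper-Pearson) intervals from reads estimated from FPKM, transcript length and this depth, and these intervals cover counting error of the libraries only. The reference sequence is that of C57BL/6J, whereas the mice are FVB, and class II chains differ much between strains. Reads lost for this reason would be lost in all 6 libraries, and their number was not tested.

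The genes of the invariant chain and of the H2-A molecule were highest in MYC DLP and lowest in WT VP. Cd74 (chromosome 18, 60803849 to 60812652), the invariant chain, had 470.8, 228.8 and 108.2 FPKM in WT AP, DLP and VP, and 299.4, 856.5 and 205.0 FPKM in the corresponding MYC lobes. H2-Aa, the alpha chain, had 217.1, 111.9 and 46.71 FPKM in WT AP, DLP and VP, and 141.1, 399.7 and 103.0 FPKM in MYC AP, DLP and VP. H2-Ab1, the beta chain, had 140.7, 65.72 and 34.77 FPKM in the WT lobes and 102.5, 295.3 and 71.75 FPKM in the MYC lobes, in the same order. The proportions of the 3 genes varied much less than their levels. The ratio of Cd74 to H2-Aa lay between 1.99 and 2.32 in the 6 libraries and that of H2-Aa to H2-Ab1 between 1.34 and 1.70, while H2-Aa itself ranged from 46.71 to 399.7 FPKM. The ratio of Cd74 to H2-Ab1 was 3.11 to 3.48 in the WT lobes and 2.86 to 2.92 in the MYC lobes.

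The remaining members had much lower levels. H2-DMa, the alpha chain of the peptide exchange factor H2-DM, had 4.471, 2.508 and 1.607 FPKM in WT AP, DLP and VP, and 4.284, 10.79 and 3.920 FPKM in MYC AP, DLP and VP. H2-DMb1, a beta chain of H2-DM, had 4.355, 4.146 and 2.669 FPKM in WT and 4.930, 12.56 and 5.033 FPKM in MYC. For both, MYC DLP stood above all other libraries, which lay within 1.607 and 5.033 FPKM. H2-DMb1 shares sequence with its neighbour H2-DMb2, and how the reads were divided over this pair is uncertain. Their sum, which does not depend on that split, was 7.33, 6.96 and 4.58 FPKM in WT AP, DLP and VP and 8.25, 22.6 and 8.22 FPKM in MYC AP, DLP and VP.

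H2-Eb1, the beta chain of the H2-E molecule, had 4.305, 2.982 and 1.176 FPKM in WT AP, DLP and VP, and 2.364, 5.510 and 1.089 FPKM in MYC AP, DLP and VP. It was the 1 member with a lower value in MYC VP than in WT VP, a difference within counting error. Ciita (chromosome 16, 10480014 to 10531064) had 0.5083, 0.3925 and 0.2227 FPKM in WT and 0.5262, 1.077 and 0.2546 FPKM in MYC, which corresponds to an estimated 33 to 117 reads per library. Only Ciita had a mean under 1 FPKM over the 6 libraries, the minimum used for the comparison across genes, and 6 of the 7 members passed it.

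**Figure D2:**
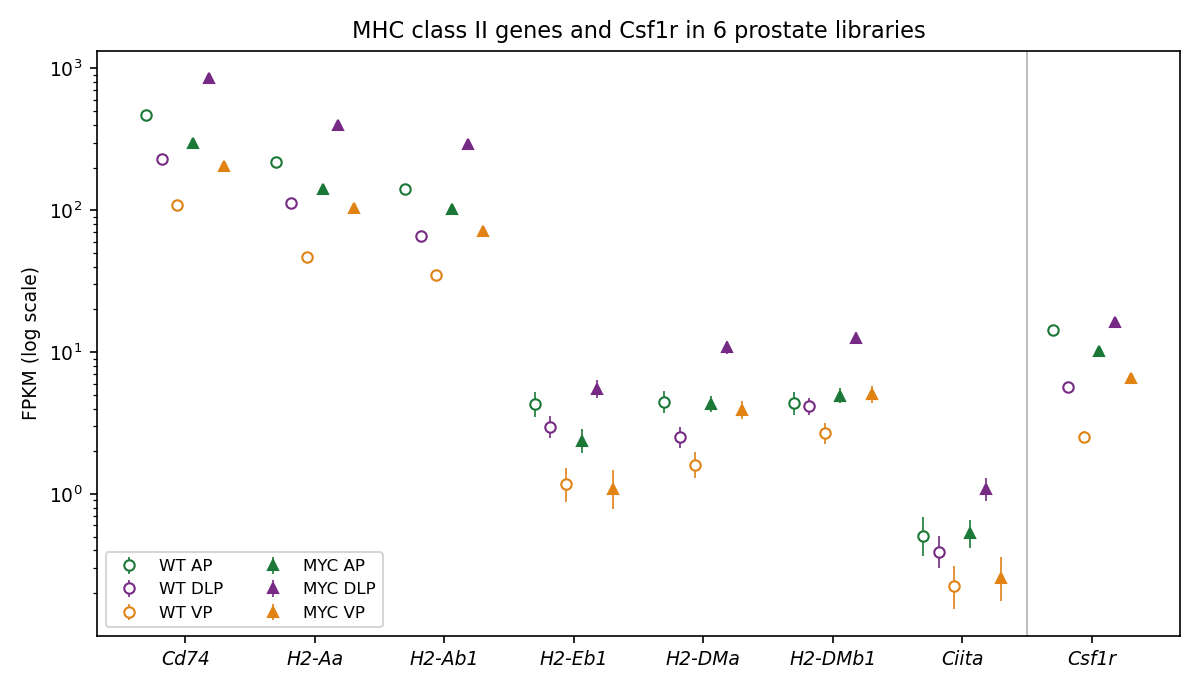
FPKM on a log scale of the 7 class II genes and of the macrophage marker Csf1r in each of the 6 libraries, with open circles for WT, triangles for MYC and bars for exact 95% Poisson intervals of the estimated reads, which cover counting error only. MYC DLP is the highest library for each of the 8 genes shown, and WT VP is the lowest for all but H2-Eb1.

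In the WT mouse, all 7 members were highest in AP and lowest in VP, with DLP between them. That order is shared by 28.3% of the 12361 genes whose mean reached 1 FPKM, the genes compared below. Cd74 was 2.06 times as high in AP as in DLP (95% interval 2.01 to 2.11) and 4.35 times as high as in VP (4.23 to 4.48). The AP to VP ratio was 4.65 (4.40 to 4.91) for H2-Aa, 4.05 (3.81 to 4.30) for H2-Ab1, 3.66 (2.59 to 5.17) for H2-Eb1 and 2.78 (2.11 to 3.71) for H2-DMa. It was smaller for H2-DMb1, at 1.63 (1.27 to 2.11), and for Ciita, at 2.28 (1.41 to 3.73). The step from AP to DLP was within counting error for H2-DMb1 (1.05, 0.831 to 1.33) and for Ciita (1.30, 0.832 to 1.94). Csf1r, the receptor for the macrophage growth factor CSF1, had the same order of lobes, with an AP to VP ratio of 5.66 (5.05 to 6.35).

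In the MYC mouse, DLP took the place of AP as the lobe with the most class II transcripts. All 7 members had their highest value of the 6 libraries in MYC DLP, as did 18.6% of the genes compared. Against MYC AP, the MYC DLP level was 2.86 times as high for Cd74 (2.81 to 2.91), 2.83 times for H2-Aa (2.74 to 2.93), 2.88 times for H2-Ab1 (2.78 to 2.99) and 2.05 times for Ciita (1.54 to 2.77). The lead over the next library was smallest for H2-Eb1, with 1.28 times the level of WT AP and an interval of 1.0003 to 1.66. The other MYC lobes were closer to each other than in WT, though hardly so for Ciita. Its AP to VP ratio was 2.07 in MYC (1.34 to 3.15), and that of H2-Eb1 was 2.17 (1.52 to 3.23), with intervals that overlap those in WT. Cd74 was 1.46 times as high in MYC AP as in MYC VP (1.43 to 1.495), whereas H2-DMa (1.09, 0.894 to 1.33) and H2-DMb1 (0.979, 0.817 to 1.18) did not differ between these lobes beyond counting error.

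Neighbours in the order of the 6 libraries differed beyond counting error at every step for Cd74, H2-Aa and H2-Ab1. For these genes the order was MYC DLP, WT AP and MYC AP, with WT VP last. WT DLP and MYC VP came between and lay close together, WT DLP being 1.12 times as high for Cd74 (1.09 to 1.14) and 1.09 times for H2-Aa (1.04 to 1.14), and MYC VP 1.09 times as high for H2-Ab1 (1.04 to 1.15). For H2-DMa, WT AP, MYC AP and MYC VP were not separated by counting. For H2-DMb1, MYC VP, MYC AP, WT AP and WT DLP each differed from the next by no more than counting error. For Ciita, only the first step, from MYC DLP to MYC AP, exceeded it.

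MYC and WT libraries of the same lobe were compared by the log2 ratio, that is log2 of (FPKM + 1) in MYC over (FPKM + 1) in WT, where the added 1 reduces the ratio of low genes. In DLP, 5 of the 7 members were at least 2-fold higher in MYC (log2 ratio of 1 or more), against 6.46% of the genes compared, and none was 2-fold lower, against 3.39%. H2-Ab1 had the largest log2 ratio, 2.15, with a ratio of FPKM of 4.49 (4.31 to 4.69). Cd74 followed with 1.90 (FPKM ratio 3.74, 3.67 to 3.82), H2-Aa with 1.83 (3.57, 3.45 to 3.70), H2-DMa with 1.75 (4.30, 3.53 to 5.29) and H2-DMb1 with 1.40 (3.03, 2.57 to 3.60). H2-Eb1 and Ciita stayed under the 2-fold threshold, with log2 ratios of 0.71 and 0.58. Without the added 1, the FPKM of Ciita were 2.74 times as high in MYC DLP (1.98 to 3.82) and those of H2-Eb1 1.85 times (1.47 to 2.34). The median log2 ratio of the 7 members in DLP was 1.75, that of all genes compared 0.03.

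In VP, class II genes were also higher in MYC, by about 2-fold for the abundant ones. H2-Aa and H2-Ab1, with log2 ratios of 1.12 and 1.02, were the 2 of 7 members at or above the 2-fold threshold, which 6.88% of the genes compared passed. None was 2-fold lower, against 5.95% of the genes. Cd74 had 0.92 (FPKM ratio 1.89, 1.84 to 1.95), H2-DMa 0.92 (2.44, 1.88 to 3.19) and H2-DMb1 0.72 (1.89, 1.52 to 2.36). The intervals of H2-Eb1 (0.926, 0.596 to 1.40) and of Ciita (1.14, 0.704 to 1.95) include a ratio of 1. The median of the 7 members was 0.92 and that of all genes 0.04. The VP counts changed with the scaling of the libraries. With equal sums of FPKM no member reached 2-fold, and the genes at least 2-fold higher and lower went from 850 and 736 to 555 and 1088, or to 713 and 917 with size factors from medians of ratios.

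In AP, 4 members were lower in MYC beyond counting error. Cd74 was 1.57 times as high in WT AP as in MYC AP (1.54 to 1.61), H2-Aa 1.54 times (1.48 to 1.60), H2-Ab1 1.37 times (1.31 to 1.44) and H2-Eb1 1.82 times (1.37 to 2.39). The log2 ratios of these genes lay between -0.66 and -0.45. No member was 2-fold lower or higher, where 0.599% and 2.05% of the genes compared were. H2-DMa, H2-DMb1 and Ciita had intervals that include a ratio of 1, with FPKM ratios of MYC to WT of 0.958 (0.766 to 1.19), 1.13 (0.907 to 1.42) and 1.04 (0.705 to 1.56). The median of the 7 members was -0.45, against 0.13 for all genes. With size factors, the genes at least 2-fold higher and lower in MYC AP went from 254 and 74 to 200 and 134.

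**Figure D3:**
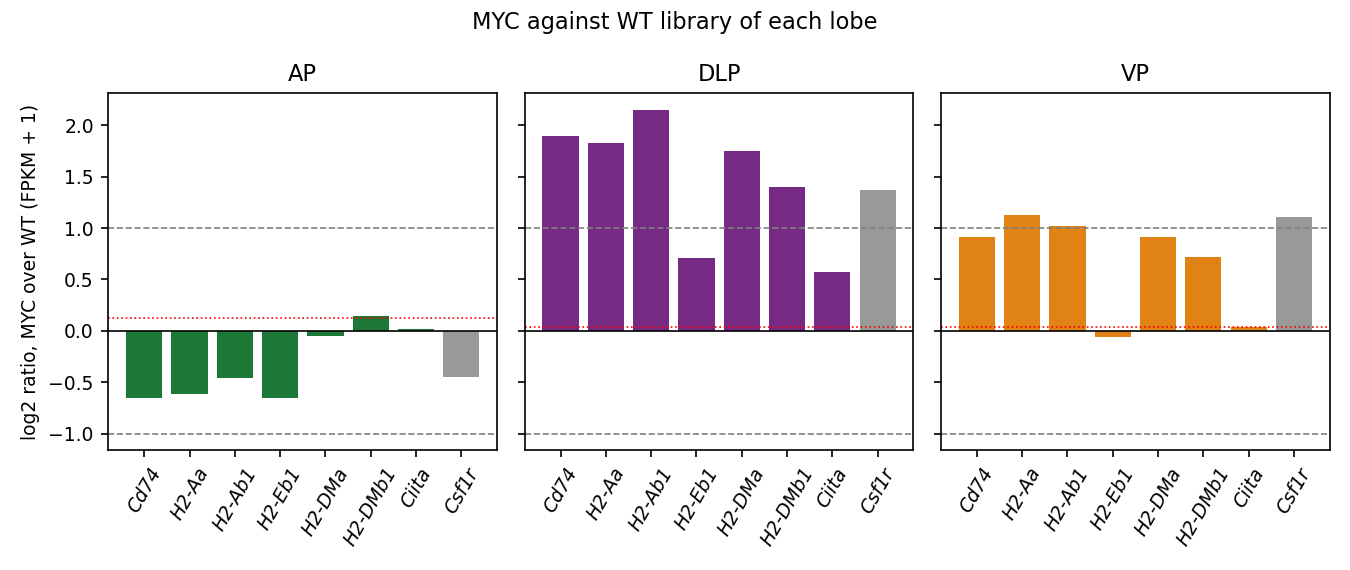
Log2 ratio of MYC over WT, from FPKM + 1, for the 7 class II genes (coloured bars) and Csf1r (grey bar) in each lobe, with dashed lines at the 2-fold threshold and a dotted red line at the median of all genes compared. All 7 class II bars point up in DLP, 6 of 7 in VP and 2 of 7 in AP.

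Class II transcripts moved with the macrophage marker Csf1r across lobes and genotypes, but not in fixed proportion to it. Csf1r had 14.32, 5.663 and 2.532 FPKM in WT AP, DLP and VP, and 10.20, 16.25 and 6.614 FPKM in MYC AP, DLP and VP. Its log2 ratio was 1.37 in DLP, 1.11 in VP and -0.45 in AP. In AP the median member differed from Csf1r by -0.0017, but from Ptprc by -0.46 and from the macrophage markers by -0.39. In DLP it lay 0.38 above, with 5 of 7 members above Csf1r, and in VP 0.19 below, with 1 of 7 above. Against Ptprc the median member in DLP lay 0.18 above, with 4 of 7 members above, and in VP 0.06 below, with 2 of 7 above. Cd74 had 32.9, 40.4 and 42.7 times the FPKM of Csf1r in WT AP, DLP and VP and 29.3, 52.7 and 31.0 times in MYC AP, DLP and VP. H2-Ab1 had 9.82 to 13.7 times the FPKM of Csf1r in the WT lobes, 18.2 times in MYC DLP, and 10.04 and 10.8 times in MYC AP and VP. MYC DLP had the highest ratio to Csf1r for Cd74, H2-Aa, H2-Ab1 and H2-DMa. For H2-DMa the lead was small, at 0.664 against 0.635 in WT VP, where this gene rests on an estimated 88 reads. Ptprc, the leukocyte marker CD45, gave another picture, since the ratio of Cd74 to Ptprc was highest in WT AP (103) and was 75.0 in MYC DLP and 72.0 in WT DLP.

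**Figure D4:**
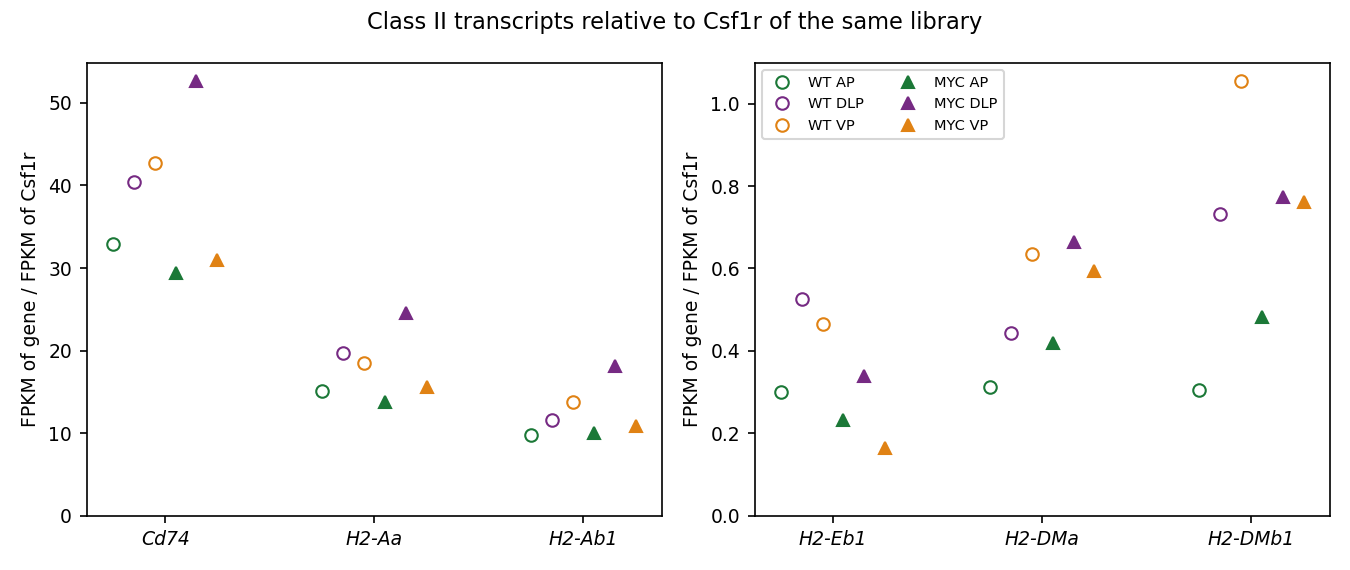
FPKM of 6 class II genes divided by the FPKM of Csf1r in the same library, with open circles for WT and triangles for MYC. MYC DLP is the highest point for Cd74, H2-Aa, H2-Ab1 and, by a small margin, H2-DMa, and the lowest H2-Eb1 point is MYC VP, at 0.165.

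The level of H2-Eb1 relative to H2-Aa was lower in MYC than in WT in DLP and VP, where the H2-Aa ratio of MYC to WT lies above the interval of H2-Eb1, while in AP the H2-Aa ratio lies within that interval. It was 1.98%, 2.66% and 2.52% of that of H2-Aa in WT AP, DLP and VP, and 1.68%, 1.38% and 1.06% in MYC AP, DLP and VP. H2-Ea-ps, the gene of the alpha partner that the annotation marks as a pseudogene, had 7.85%, 12.5% and 9.94% of the H2-Aa level in WT and 6.91%, 6.54% and 6.55% in MYC. These proportions were computed after the values had been seen, and H2-Eb1 rests on an estimated 41 to 177 reads per library. The proportion of H2-DMa to H2-Aa was 2.06% to 3.44% in WT and 2.70% to 3.804% in MYC. Across the 6 libraries, the 21 pairs of members had correlations of log2(FPKM + 1) between 0.668 and 0.998, with a median of 0.907. The lowest was that of H2-Eb1 with H2-DMb1, and the libraries of 1 mouse share their animal.

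Genes that act with class II were counted from 5 short lists, 36 genes in all, of which 31 had a mean of at least 1 FPKM. The counts run over all 36, whereas the shares of all genes cover only those with that mean. In DLP 7 were at least 2-fold higher in MYC, against 6.46% of all genes compared, and none lower. In VP 5 were higher, against 6.88%, and 1 was lower, against 5.95%, shares that change with the scaling as given above. In AP none changed by 2-fold. Of the other class II genes, H2-DMb2 had a log2 ratio of 1.53 in DLP and H2-Ob of 1.01, whereas H2-Oa, its partner, had 0.83. H2-Ob nevertheless remained low, at 0.2406 FPKM in WT DLP and 1.493 in MYC DLP. H2-Eb2 was listed at 0 in the WT lobes and in MYC AP, and reached 0.1267 FPKM in MYC DLP.

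The factors that bind the X and Y boxes had log2 ratios under the 2-fold threshold in every lobe. Rfx5, Rfxap and Rfxank, the subunits of the RFX complex, had log2 ratios between 0.21 and 0.43 in DLP, and Nfya, Nfyb and Nfyc, the subunits of NF-Y, between -0.18 and -0.09. In VP Rfx5 had 0.48, Rfxap 0.33 and Rfxank -0.06, and the NF-Y subunits lay between -0.31 and 0.01. In AP Rfx5 had -0.67, Rfxap 0.33 and Rfxank -0.39. Spi1, which encodes the myeloid factor PU.1, had 2.916 FPKM in the WT and 9.090 FPKM in the MYC library of DLP, a log2 ratio of 1.37, and its log2 ratio in VP was 1.24. Irf1 was lowest in WT VP, with 38.98 FPKM, and its log2 ratio was 0.97 in VP and 0.12 in DLP.

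Transcripts of interferon gamma itself were low. Ifng had 0.8964, 0.7806 and 0.2004 FPKM in WT AP, DLP and VP and 0.7548, 2.004 and 1.139 FPKM in MYC AP, DLP and VP. The log2 ratios of 0.75 in DLP and 0.83 in VP were under the 2-fold threshold, while the ratios of FPKM without the added 1 were 2.57 and 5.68. The receptor chains Ifngr1 and Ifngr2 had 0.53 and 0.50 in DLP and -0.09 and 0.07 in VP. Socs1, a feedback inhibitor of this pathway, had 0.52 in DLP and 0.68 in VP.

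Of the 6 peptide processing genes, 4 were at least 2-fold higher in MYC VP, against 6.88% of all genes compared, and 2 in MYC DLP, against 6.46%. Counts and shares are those of the values as deposited, and the count of these genes was not recomputed under other scalings. Ctss, which encodes cathepsin S, the protease that trims the invariant chain in antigen-presenting cells, had 45.78, 14.13 and 10.17 FPKM in WT AP, DLP and VP and 41.70, 119.9 and 56.49 FPKM in MYC AP, DLP and VP. Its log2 ratios of 3.00 in DLP and 2.36 in VP exceeded those of all class II members. Lgmn, the endosomal asparaginyl protease, had 1.40 in DLP and 1.24 in VP. Ifi30, a thiol reductase of the same compartment, had 0.96 and 1.47, and Ctsb had 0.82 and 1.09. Ctsl, the cathepsin that trims the invariant chain in thymic epithelium, had negative log2 ratios, with -0.55 in DLP and -0.37 in VP. Of the costimulatory genes, Cd80 had a log2 ratio of 1.17 in DLP, Cd86 0.94 and Cd40 0.53. Icosl was the 1 gene at least 2-fold lower, with 23.77 FPKM in the WT and 5.415 FPKM in the MYC library of VP.

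Some markers of cells that can carry class II were at least 2-fold higher in MYC DLP or VP and none in MYC AP, and their part in the class II results was not tested. The summed level of 12 macrophage markers was 222.8, 89.9 and 59.6 FPKM in WT AP, DLP and VP and 210.0, 465.0 and 323.6 FPKM in MYC AP, DLP and VP, with 10 of 12 at least 2-fold higher in MYC DLP and 8 of 12 in MYC VP. Of all genes compared, 6.46% and 6.88% were, which is the background for the other marker lists too. Marker counts include genes with a mean under 1 FPKM, which this background leaves out. In MYC VP this sum exceeded that of WT AP, whereas the summed class II level there was 390.0 FPKM against 842.2 in WT AP. The macrophage sum came in large part from Lyz2 and the complement genes C1qa, C1qb and C1qc. In VP, Lyz2 had 7.816 FPKM in the WT and 109.5 FPKM in the MYC library, a log2 ratio of 3.65, and the C1q genes had log2 ratios of 2.45 to 2.93 in VP. Mertk and Cd163 did not follow, with log2 ratios of -0.49 and -0.02 in DLP.

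The summed levels of dendritic and of B cell markers were highest in MYC DLP. The 9 dendritic cell markers, of which 4 had a mean of at least 1 FPKM, summed to 24.3 FPKM there and to 3.05 to 11.8 FPKM in the other libraries. Of the 9, 3 were at least 2-fold higher in MYC DLP (6.46% of all genes) and 1 in MYC VP, which is near the 6.88% of all genes. Itgax, which encodes CD11c, had 1.068 FPKM in WT DLP and 6.882 in MYC DLP. Cd209a had 0.09943 and 1.844 FPKM, and it had under 0.02 FPKM in both VP libraries. Ccr7, a chemokine receptor of migrating dendritic cells and of T cells, had the highest mean of the list, with 10.48 FPKM in MYC DLP and log2 ratios of 1.38 in DLP and 1.25 in VP. Flt3, Xcr1 and Clec9a were also highest in MYC DLP, with 0.4497, 0.4600 and 0.3353 FPKM, whereas Siglech and Batf3 were highest in WT AP, with 0.7805 and 2.012 FPKM, and Zbtb46 in MYC AP, with 2.266 FPKM. The 5 B cell markers summed to 8.78 FPKM in MYC DLP and to 0.485 to 2.26 FPKM elsewhere. Ms4a1, which encodes CD20, was at 0 in every WT lobe, with 1.056 FPKM in MYC DLP and under 0.04 FPKM in the other MYC lobes. In VP the B cell sum was 0.556 FPKM in WT and 0.485 FPKM in MYC, while the class II sum was 195.3 and 390.0 FPKM.

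T cell and leukocyte markers were higher in MYC DLP and VP as well. Of 6 T cell markers, 4 were at least 2-fold higher in DLP and 3 in VP, and their sum was 29.6 FPKM in MYC DLP and 14.8 FPKM in MYC VP, against 3.05 to 7.85 FPKM in the WT lobes. All 5 leukocyte markers passed 2-fold in DLP and 4 of 5 in VP. In AP none of the macrophage, dendritic, B, T or leukocyte markers was changed by 2-fold. Of 5 luminal markers, 1 was at least 2-fold higher in MYC DLP and none in the other lobes. This was Krt19, with 443.6 FPKM in WT DLP, 1035 FPKM in MYC DLP and log2 ratios of 0.90, 1.22 and 0.47 in AP, DLP and VP. Krt8 had 399.9, 445.7 and 1292 FPKM in WT AP, DLP and VP, and log2 ratios of -0.04, 0.25 and -0.23 in AP, DLP and VP. Among the WT lobes, Krt8, Krt18 and Krt19 were highest in VP, while the other luminal markers were highest in AP and lowest in VP. The 4 basal markers summed to 1337, 918 and 407 FPKM in WT AP, DLP and VP and to 859, 1286 and 278 FPKM in MYC, with 2 of 4 at least 2-fold higher in MYC DLP. In AP 1 basal marker was higher (Trp63, 1.57) and 1 lower (Krt14, -1.19), and in VP 1 was lower (Trp63, -1.20). Of 6 fibroblast markers, 3 were 2-fold higher in MYC AP, 2 were higher and 2 lower in MYC DLP, and 3 were lower in MYC VP. None of the 5 endothelial markers passed 2-fold in any lobe.

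**Figure D5:**
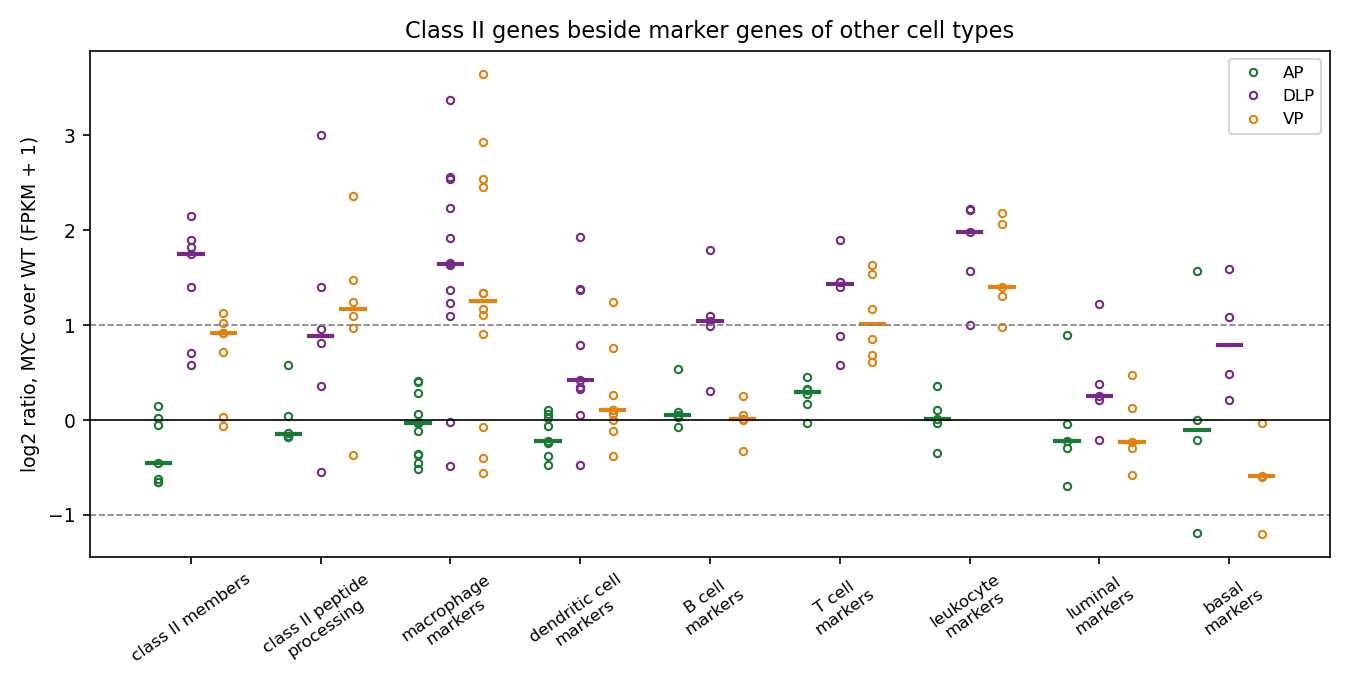
Log2 ratio of MYC over WT, from FPKM + 1, for each gene (circles) of the class II members and of 8 other lists in each lobe, with thick lines for the list medians and dashed lines at the 2-fold threshold. Macrophage, T cell and leukocyte markers lie mostly above 0 in DLP and VP, and dendritic and B cell markers reach their highest medians in DLP.

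The genes with the pattern most like that of class II over the 6 libraries included several genes known from leukocytes. Likeness was measured as Pearson's correlation with the mean profile of the 6 members above 1 FPKM, among 5667 other genes that varied by at least 2-fold. The 10 closest were Il1r2, Ccr2, Cd33, Cd86, Klrb1b, Myo1f, Itgax, Plk2, Zc3h12a and Lilrb4a, with correlations of 0.989 down to 0.983. Ccr2, a chemokine receptor of monocytes and their progeny, had 1.815, 0.9386 and 0.5766 FPKM in WT AP, DLP and VP and 1.417, 3.155 and 0.9128 FPKM in MYC AP, DLP and VP. Cd86 and Itgax are genes of antigen-presenting cells. Lilrb4a has a near-identical neighbour, so that its reads are uncertain. Csf1r came at place 129 with 0.937, Ptprc at 101 with 0.947, Ctss at 445 with 0.857 and C1qa at 511 with 0.836. With 6 libraries of 2 mice, such an order is a description, and 61 of the ranked genes had the same rank order of libraries as the mean class II profile.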

How the data were processed

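The authors mapped single-end reads of stranded poly(A) libraries with STAR and quantified genes with Cufflinks, and the submitters' notes name the build mm10. The methods speak of read counts, but the deposited values are FPKM, not whole numbers, which sum to 374085 to 483143 per library, so that no count model was fitted. The gene annotation is not given in the sources used here. Values were used as deposited, as log2(FPKM + 1), for the 12361 genes whose mean reached 1 FPKM. With 1 library per lobe and genotype no test was run.

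Library depth was estimated on single-exon genes longer than 600 bases (GENCODE M1) at under 0.3 FPKM, as the number of reads at which FPKM times length less 200 bases falls on whole numbers. Between 34.4% and 48.3% of these values lay within 3% of a read of a whole number, against 6% by chance. Lengths were found for 82.1% of the genes, by symbol. Depth and calls were tested on simulated data. Members and lists were chosen with earlier results of these data known. The rule for named genes took the members, Csf1r, genes of the pathway lists past 2-fold in any lobe, up to 3 genes of highest mean level per marker list, and the 10 genes of most similar pattern. Other genes named, such as the subunits of RFX and NF-Y, Ifng, its receptor chains, Socs1, Irf1, Ctsl, Mertk, Cd163, Cd209a, Siglech, Batf3, Flt3, Xcr1, Clec9a, Trp63 and Ms4a1, were chosen after their values were seen. Some genes of the lists are counted but not reported here by name. Other settings tried were scaling by medians of ratios (size factors) or to equal FPKM sums, a pseudocount of 0.1, a 4-fold threshold, a mean of at least 10 FPKM, and Ptprc or the macrophage markers in place of Csf1r. Computation used Python 3.11.15 with scipy 1.17.1, pandas 2.3.3, numpy 2.4.6 and, for plots, matplotlib 3.10.9.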

Additional observations from a re-analysis of the deposited data

Results flagged for a closer look

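Several members moved in opposite directions in MYC against WT AP and in MYC against WT DLP or VP, each with a counting interval that leaves out a ratio of 1. The log2 ratio in DLP exceeded that in AP by 2.55 for Cd74, 2.45 for H2-Aa, 2.60 for H2-Ab1 and 1.37 for H2-Eb1. The log2 ratio in VP exceeded that in AP by 1.57 for Cd74, 1.74 for H2-Aa and 1.48 for H2-Ab1. These differences between lobes were not tested, since each lobe and genotype has 1 library. Csf1r had log2 ratios of 1.37 in DLP, 1.11 in VP and -0.45 in AP.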

How the results depend on the processing

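The direction of the member median held in each lobe under every alternative. In AP it was -0.61 with size factors from medians of ratios and -0.62 over the 3 members with a mean of at least 10 FPKM. In VP it was 0.81 with size factors, 0.68 with equal sums of FPKM and 1.02 over those 3 members. The median over all genes compared went from 0.13 to -0.0015 in AP with size factors and from 0.04 to -0.15 in VP with equal sums. In DLP, 1 member passed 4-fold, and 3 members were 2-fold higher among those of at least 10 FPKM. In VP the number at least 2-fold higher was 1 with size factors, 0 with equal sums and 0 at 4-fold. With a pseudocount of 0.1 the number was 3 in VP and 6 in DLP. Relative to Csf1r, the median in AP was -0.17 over the members of at least 10 FPKM, and in VP it was -0.43 with a pseudocount of 0.1. With Ptprc as the reference it was -0.46 in AP and -0.06 in VP, and with the macrophage markers -0.39 in AP and -0.45 in VP. In DLP it was 0.38 to Csf1r, 0.18 to Ptprc and 0.16 to the macrophage markers. The cause of these shifts was not tested. Of 63 values of single members recomputed under other scalings or the other pseudocount, 61 kept their sign, and the 2 that did not belong to Ciita, with log2 ratios of at most 0.04. By Spearman's correlation, 5 of the 10 most similar genes had a coefficient of 1. Few reads limit Ciita and H2-Eb1. No paired analysis was possible because each genotype is 1 animal, so that pairing by lobe would take lobes of the same animal as its replicates.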
